A study of Mus musculus with 20 samples.

Results

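The Hoxa, Hoxb and Hoxc cluster genes were followed in ATDC5, a chondrogenic mouse line of teratocarcinoma origin whose cells differentiate along the cartilage lineage in insulin-containing medium. The set held 29 genes chosen by symbol and cluster, 10 of Hoxa, 10 of Hoxb and 9 of Hoxc, and all 29 matched among the 27911 genes of the count table. Kmt2d, which codes for a methyltransferase of histone H3 lysine 4, was inactivated in the mutant lines by deleting the SET domain from both alleles. The clones were sequenced in 4 groups as polyadenylated RNA: 2 Kmt2d-/- and 3 Kmt2d+/+ clones after 7 days in chondrogenic medium (day 7), and the same 2 Kmt2d-/- and 3 Kmt2d+/+ clones before differentiation (day 0). Each clone is a separate cell line and gave 1 library per day. A difference between genotypes is therefore also a difference between 2 particular clones and 3 others. In fits that do not pair the days of a clone, p-values measure the spread between clones within a group. Those fits treat the 2 days of a clone as independent. Where the days are paired by clone, p-values measure how much the day difference varies between clones of a genotype.

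Hox genes code for homeodomain transcription factors that give cells their position along the head-to-tail axis and along the limb. The genes of a cluster lie side by side, and those at the 3' end (low paralog numbers) are used in anterior tissue and those at the 5' end (high numbers) in posterior tissue. Methylation of histone H3 lysine 4 by trithorax-group enzymes is known to maintain Hox expression, and Polycomb complexes repress it. In the skeleton, Hox genes set the identity of vertebrae, ribs and limb segments and act in chondrocyte precursors.

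Level is given as CPM, the count scaled to a fixed library total, on a library size scaled with edgeR's TMM method. Libraries held 35792773 to 66237188 counts, so that 3 counts corresponded to between 0.0409 and 0.0859 CPM on the scaled library sizes. Summed CPM of the 11 chondrocyte markers was 23620 to 27830 in Kmt2d-/- and 323 to 1086 in Kmt2d+/+ clones at day 7, and 1050 to 2866 in Kmt2d-/- and 50.5 to 141 in Kmt2d+/+ clones at day 0. No chondrocyte marker was at 0 in every library. The 4 smooth muscle and myofibroblast markers summed to 137 to 211 and 558 to 840 CPM in Kmt2d-/- and Kmt2d+/+ clones at day 7, and to 316 to 1712 and 2327 to 3129 CPM at day 0. The 3 immune markers summed to 0.577 to 1.81 CPM in Kmt2d-/- and 3.76 to 9.80 CPM in Kmt2d+/+ clones over both days. Most of the Kmt2d+/+ sum was Cd74, at 2.62 to 9.27 CPM, while Ptprc reached at most 0.139 CPM in any library. Epithelial markers summed to at most 1.49 CPM and skeletal muscle markers to at most 0.139 CPM. Other lists were higher over the 10 libraries. Neural markers summed to 22.3 to 125 CPM, mostly Tubb3 and Map2. Adipocyte markers summed to 5.84 to 24.5 CPM, mostly Pparg, and endothelial markers to 4.68 to 8.78 CPM, mostly Pecam1. Of the chondrocyte markers 3 of 11 passed in edgeR between genotypes at day 7 and 1 at day 0, all higher in Kmt2d-/- clones, and 3 passed between days in Kmt2d-/- and 5 in Kmt2d+/+ clones, all higher at day 7. Of the smooth muscle and immune markers, 3 and 2 were tested and 0 passed. The part of any of these markers in a Hox result was not tested. Kmt2d itself had 175 and 113 CPM in Kmt2d-/- clones against 187, 173 and 207 CPM in Kmt2d+/+ clones at day 7, and 205 and 148 against 211, 185 and 195 CPM at day 0. Counts over the whole gene include exons outside the deleted domain and do not check the deletion.

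The Hoxa genes spanned 52162417 to 52260880 on chromosome 6, the Hoxb genes 96194316 to 96368256 on chromosome 11 and the Hoxc genes 102921103 to 103036852 on chromosome 15 (GRCm38, GENCODE vM21). All 10 Hoxa genes lay on the minus strand, and all Hoxb and Hoxc genes on the plus strand. RefSeq promoter windows of 300 bases, 250 before and 50 after the annotated start, matched 13 of the 29 genes with 14 windows (GRCm38.p6). Windows of 3 genes are shown here because their genes carry differences described below: Hoxa2 (chr6:52164782-52165081, minus strand) between genotypes, and Hoxb4 (chr11:96318017-96318316, plus strand) and Hoxa13 (chr6:52260831-52261130, minus strand) between days. Each is printed 5' to 3' along the gene's own strand, with CpG pairs in capitals.
Hoxa2: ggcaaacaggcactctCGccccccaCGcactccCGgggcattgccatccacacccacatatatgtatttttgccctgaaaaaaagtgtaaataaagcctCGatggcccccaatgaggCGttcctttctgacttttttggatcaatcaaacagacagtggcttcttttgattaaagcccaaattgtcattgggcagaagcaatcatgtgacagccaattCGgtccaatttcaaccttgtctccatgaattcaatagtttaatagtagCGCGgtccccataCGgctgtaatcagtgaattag
Hoxb4: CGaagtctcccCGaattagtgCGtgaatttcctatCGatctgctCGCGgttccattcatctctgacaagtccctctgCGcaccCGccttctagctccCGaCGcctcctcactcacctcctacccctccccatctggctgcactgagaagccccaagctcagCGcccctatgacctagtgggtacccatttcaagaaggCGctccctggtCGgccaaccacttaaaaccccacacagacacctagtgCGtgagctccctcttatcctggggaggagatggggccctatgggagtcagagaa
Hoxa13: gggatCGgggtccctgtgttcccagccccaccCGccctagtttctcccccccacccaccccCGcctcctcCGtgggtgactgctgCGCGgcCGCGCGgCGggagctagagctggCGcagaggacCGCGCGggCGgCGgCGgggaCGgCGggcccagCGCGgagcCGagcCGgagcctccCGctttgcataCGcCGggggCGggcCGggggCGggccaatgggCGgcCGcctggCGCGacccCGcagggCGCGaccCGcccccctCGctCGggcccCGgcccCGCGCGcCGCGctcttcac
The Hoxa13 window held 45 CpG pairs and was 81.0% G or C, against 14 pairs in the Hoxb4 window and 9 in the Hoxa2 window. Observed over expected CpG had a median of 0.626 over the 14 windows and 0.384 over all 32851 windows of the table, and 11 of the 14 lay above that overall median. The motif TGATTNAT, bound by Hox and Pbx proteins together, was searched on both strands. It was present in the Hoxa2 window alone among the 14, and in 3.22% of all windows. These are descriptions of the letters in the windows, not of binding.

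Expression was uneven along and between the clusters. Per kilobase of exon, Hoxb9, a gene of thoracic rib patterning (ENSMUSG00000020875, chromosome 11, 96271457 to 96276595), was the most abundant, with a mean of 81.7 CPM per kb over the 10 libraries. Hoxb7 followed with 18.5 and Hoxa7 with 10.8 CPM per kb. Hoxb6, Hoxb8, Hoxc4, Hoxb4, Hoxa4, Hoxa5 and Hoxa10 averaged between 4.25 and 8.82 CPM per kb, and Hoxc9, Hoxc5, Hoxb3, Hoxa6, Hoxa3 and Hoxc10 between 1.78 and 3.90. The others that were measurable, Hoxa13, Hoxc6, Hoxa2, Hoxb2, Hoxb5, Hoxc13, Hoxa9 and Hoxc8, averaged between 0.249 and 0.897 CPM per kb.

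The 24 genes just named passed the filter on low counts, 9 of Hoxa, 8 of Hoxb and 7 of Hoxc. The filter is met when enough libraries carry counts, so it selects for expression in at least 1 group. The other 5 genes did not pass it. Hoxb1, which acts in the hindbrain, reached 12 counts in its highest library and 0.0422 to 0.212 CPM. Hoxa11, a gene of the forearm segment of the limb, had 8 counts in all, of which 5 were in Kmt2d-/- clone 1 at day 7. Hoxc11 and Hoxc12 had 3 counts each over all libraries, and Hoxb13, a gene of the tail and prostate, had 0 counts in each of the 10 libraries. At this depth the last value limits Hoxb13 to under 0.0859 CPM in the shallowest library. The plot of all 29 genes sets these levels side by side.

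**Figure D1:**
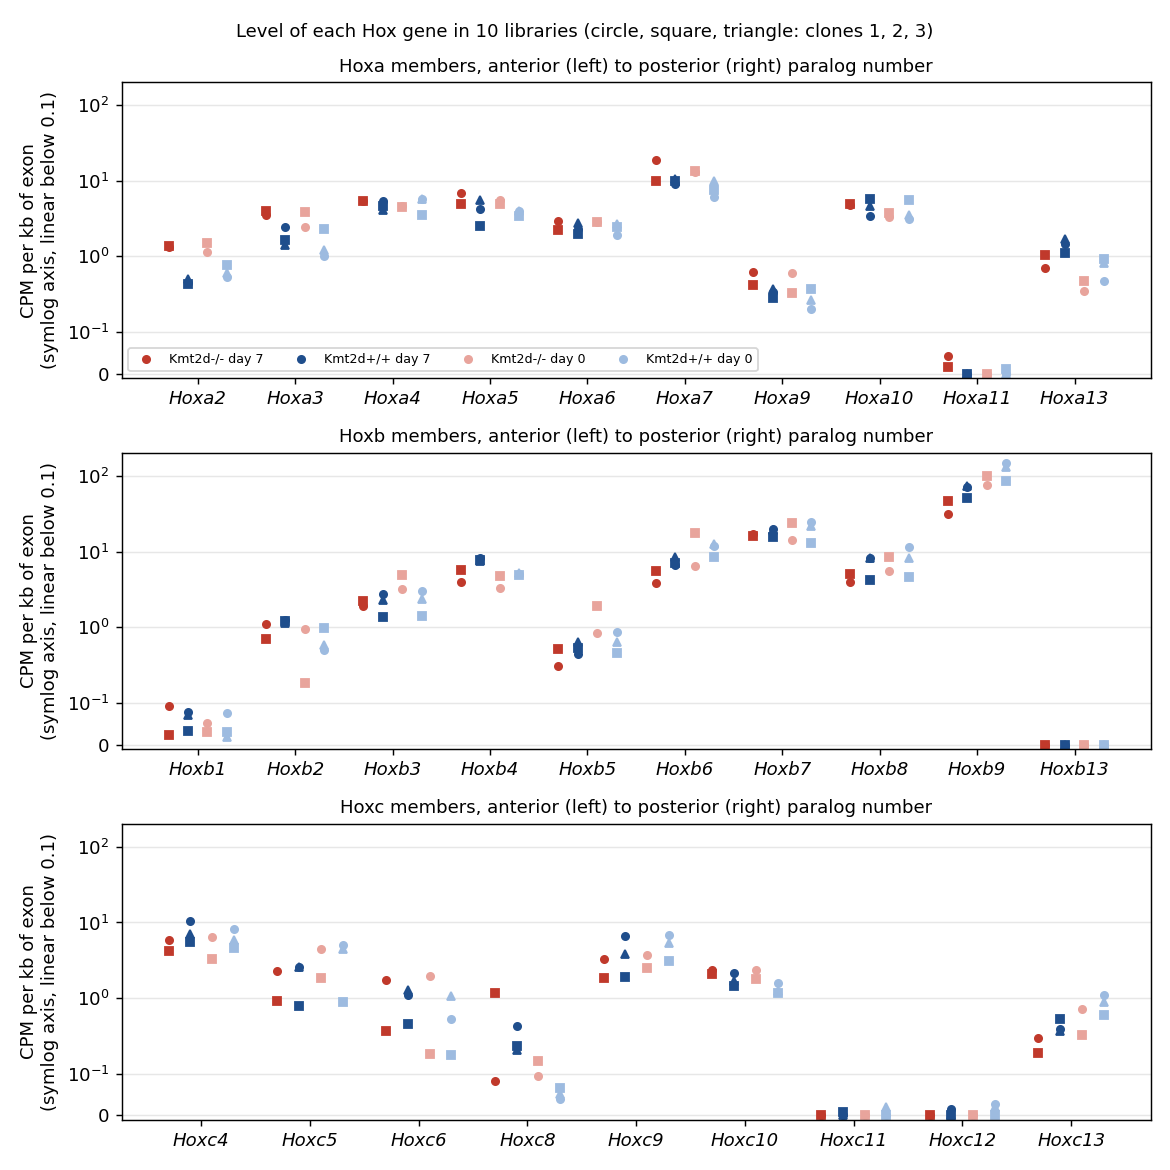
Level of each gene as CPM per kb of exon (symlog axis) in the 10 libraries, by cluster and paralog number, with colours for genotype and day and symbols for clones. Hoxb9 stands highest in the set at a mean of 81.7 CPM per kb, while Hoxb13 is at 0 throughout.

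Between days, Hoxb9 was lower after differentiation in every clone, and Hoxb9, Hoxb4 and Hoxb3 were the Hox genes that passed once clones were paired. Hoxb9 had 79.9 and 122 CPM at day 7 in Kmt2d-/- clones, against 197 and 257 CPM at day 0. In Kmt2d+/+ clones it had 184, 130.5 and 189.5 CPM at day 7, against 384, 220.0 and 339 CPM at day 0. The days did not overlap within either genotype. In such bulk RNA, fewer cells that express a gene and less RNA per cell cannot be told apart. Comparing day 7 with day 0, log2 fold change was -1.17 (SE 0.32, edgeR adjusted p = 0.126) in Kmt2d-/- clones and -0.90 (SE 0.26, edgeR adjusted p = 0.0767) in Kmt2d+/+ clones. The same clone was sampled on both days, and when each clone was given a term of its own Hoxb9 passed in both genotypes. It then fell by 1.19 (SE 0.14, edgeR adjusted p = 0.0137) in Kmt2d-/- and by 0.89 (SE 0.11, edgeR adjusted p = 0.0113) in Kmt2d+/+ clones on the log2 scale.

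Hoxb4, known for neck vertebra identity and for expansion of blood stem cells, differed the other way. It had 21.2, 20.0 and 19.1 CPM at day 7 in Kmt2d+/+ clones, against 12.9, 12.4 and 13.3 CPM at day 0. In Kmt2d-/- clones it had 10.2 and 14.7 CPM at day 7, against 8.43 and 12.3 CPM at day 0. The days were apart in Kmt2d+/+ clones and overlapped in Kmt2d-/- clones, although both mutant clones were higher at day 7. The log2 difference in Kmt2d+/+ clones was 0.64 (SE 0.21, edgeR adjusted p = 0.104), and with a term for each clone Hoxb4 rose by 0.64 (SE 0.13, edgeR adjusted p = 0.0292). In Kmt2d-/- clones that fit gave 0.27 (SE 0.16, edgeR adjusted p = 0.373).

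Hoxb3, an anterior gene of the hindbrain and neck, had 8.08 and 9.37 CPM at day 7 in Kmt2d-/- clones, against 13.7 and 21.0 CPM at day 0. In Kmt2d+/+ clones it had 11.6, 5.77 and 9.57 CPM at day 7, against 12.9, 5.99 and 9.88 CPM at day 0. The 3 wild-type clones kept their order and nearly their level, while both mutant clones were lower at day 7. The log2 difference was -0.99 (SE 0.44, edgeR adjusted p = 0.338) in Kmt2d-/- clones without the clone term. With it, Hoxb3 fell by 0.96 (SE 0.19, edgeR adjusted p = 0.0468), and the Kmt2d+/+ estimate was -0.09 (SE 0.16, edgeR adjusted p = 0.723). The difference of the 2 day effects was -0.88 (SE 0.25, edgeR adjusted p = 0.467 with the clone term), so a difference between genotypes did not pass. Of the exon bases of Hoxb3, 52.9% overlap the antisense gene Hoxb3os, and whether counting used strand is not given in the sources used here.

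**Figure D2:**
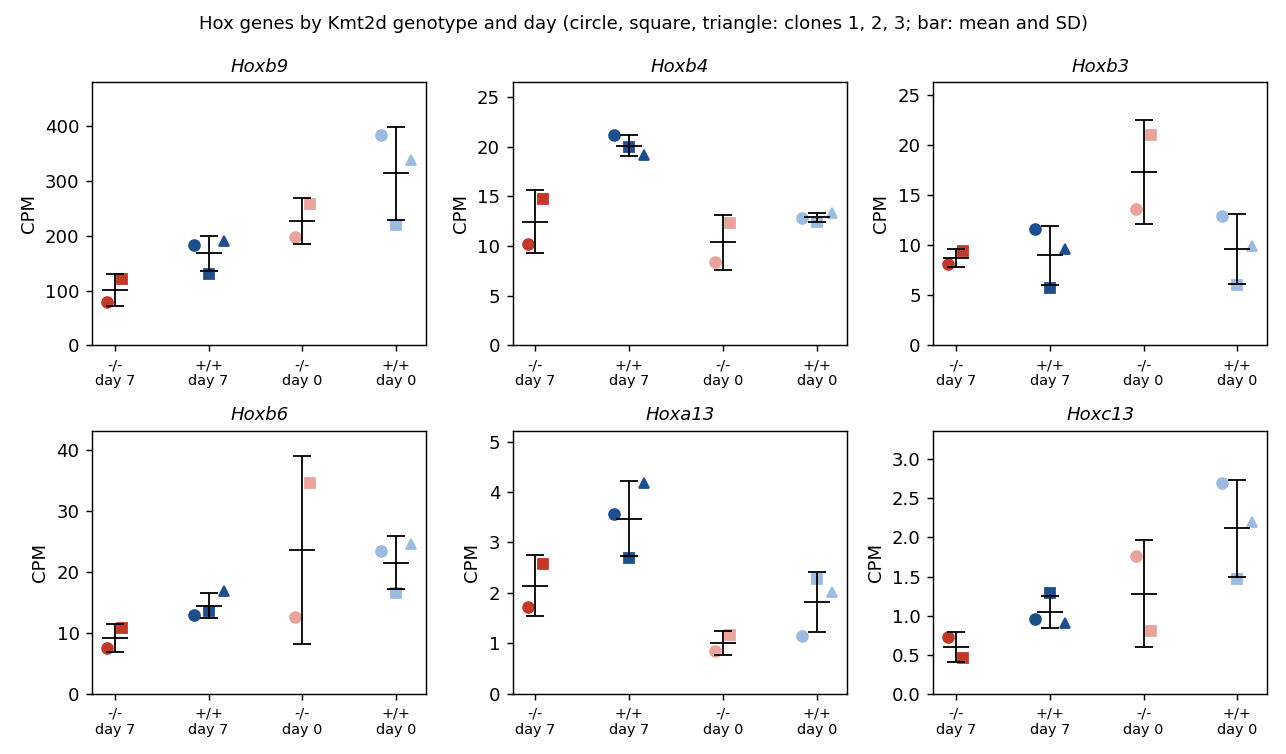
CPM of Hoxb9, Hoxb4, Hoxb3, Hoxb6, Hoxa13 and Hoxc13 in each library, with Kmt2d-/- left of Kmt2d+/+ at day 7 and then at day 0, and with group means and SD (n = 2 and 3 clones). Hoxb9 averaged 101 and 168 CPM at day 7 against 227 and 314 CPM at day 0, while Hoxa13 averaged 2.14 and 3.48 CPM at day 7 against 1.01 and 1.81 CPM at day 0, each in Kmt2d-/- and Kmt2d+/+ clones.

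Without the clone term, 0 of the 24 genes passed at an adjusted p under 0.05 for day 7 against day 0 in Kmt2d-/- clones, where 1.27% of all 15467 genes tested passed. In all, 6 had an unadjusted p under 0.05 in edgeR (14.8% of all genes), namely Hoxa13 and Hoxc8 with higher and Hoxb3, Hoxb5, Hoxb6 and Hoxb9 with lower values. DESeq2 passed Hoxb5, Hoxb6 and Hoxb9 (6.75% of all genes), and limma-voom passed 0 (1.16%). In Kmt2d+/+ clones 0 of 24 passed as well, where 5.08% of all genes did. There, 5 had an unadjusted p under 0.05 (24.7% of all genes), Hoxa13, Hoxb4 and Hoxc8 higher and Hoxb9 and Hoxc13 lower. DESeq2 passed Hoxb4 and Hoxb9 (15.1%) and limma-voom 0 (5.08%). With a term for each clone 2 of 24 passed in each genotype, beside 5.57% of all genes in Kmt2d-/- and 18.0% in Kmt2d+/+ clones. The Hox genes thus passed at a share of 8.33%, near the first background and under the second.

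The neighbours of Hoxb9 were given by level. Hoxb8, a gene of myeloid progenitors and microglia, had 10.4 and 13.3 CPM at day 7 in Kmt2d-/- clones, against 14.7 and 22.4 CPM at day 0. It had 21.6, 10.9 and 21.5 CPM at day 7 in Kmt2d+/+ clones, against 30.6, 12.1 and 21.4 CPM at day 0. The days were apart in the mutant clones and overlapped in the wild-type ones. Log2 differences were -0.65 (SE 0.47, edgeR adjusted p = 0.607) and -0.24 (SE 0.38, edgeR adjusted p = 0.741) in Kmt2d-/- and Kmt2d+/+ clones.

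Hoxb7, another trunk gene, had 26.1 and 25.1 CPM at day 7 in Kmt2d-/- clones, against 22.1 and 37.0 CPM at day 0. Its Kmt2d+/+ clones had 30.8, 24.1 and 29.6 CPM at day 7, against 37.5, 19.8 and 33.2 CPM at day 0. All of these overlapped. Day differences were -0.21 (SE 0.33, edgeR adjusted p = 0.843) in Kmt2d-/- and -0.10 (SE 0.27, edgeR adjusted p = 0.861) in Kmt2d+/+ clones on the log2 scale.

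Hoxb6, expressed in the trunk and its lateral mesoderm, had 7.58 and 10.8 CPM at day 7 in Kmt2d-/- clones, against 12.6 and 34.5 CPM at day 0. In Kmt2d+/+ clones it had 12.9, 13.7 and 16.8 CPM at day 7, against 23.4, 16.5 and 24.5 CPM at day 0. Every clone was lower at day 7, with an overlap between wild-type days, and mutant clone 2 at day 0 stood apart. The log2 difference was -1.36 (SE 0.44, edgeR adjusted p = 0.181) in Kmt2d-/- and -0.57 (SE 0.35, edgeR adjusted p = 0.353) in Kmt2d+/+ clones. Without Kmt2d-/- clone 2 the Kmt2d-/- difference of Hoxb6 was -0.74 (edgeR adjusted p = 0.668), and without clone 1 it was -1.69 (edgeR adjusted p = 0.327). Hoxb5, which helps place the shoulder girdle, had 0.846 and 1.43 CPM at day 7 in Kmt2d-/- clones, against 2.32 and 5.37 CPM at day 0. Its Kmt2d+/+ clones had 1.22, 1.49 and 1.77 CPM at day 7, against 2.38, 1.28 and 1.79 CPM at day 0, which overlapped. As with Hoxb6, mutant clone 2 at day 0 was the highest library.

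Among the other abundant genes, Hoxa7, a trunk gene of the Hoxa cluster, had 53.4 and 28.4 CPM at day 7 in Kmt2d-/- clones, against 37.4 and 38.3 CPM at day 0. It had 25.9, 28.4 and 30.3 CPM in Kmt2d+/+ clones at day 7, against 17.6, 21.5 and 28.6 CPM at day 0. The days overlapped in both genotypes. Log2 differences were 0.11 (SE 0.31, edgeR adjusted p = 0.924) and 0.32 (SE 0.25, edgeR adjusted p = 0.478) in Kmt2d-/- and Kmt2d+/+ clones. Hoxc4, an anterior gene of the Hoxc cluster, had 15.3 and 10.6 CPM at day 7 in Kmt2d-/- clones, against 16.3 and 8.55 CPM at day 0. In Kmt2d+/+ clones it had 26.9, 14.2 and 17.9 CPM at day 7, against 21.0, 11.9 and 14.8 CPM at day 0. These values overlapped too, with log2 differences of 0.06 (SE 0.43, edgeR adjusted p = 0.975) and 0.31 (SE 0.35, edgeR adjusted p = 0.630).

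Hoxa13, required for hand and foot, Hoxc13, required for hair and nails, and Hoxc8, a thoracic gene, were low in level and were picked out after their values were seen. Hoxa13 had 1.71 and 2.57 CPM at day 7 in Kmt2d-/- clones, against 0.845 and 1.17 CPM at day 0. Its Kmt2d+/+ clones had 3.57, 2.68 and 4.17 CPM at day 7, against 1.15, 2.28 and 2.02 CPM at day 0. Within each genotype the days did not overlap, and log2 differences were 1.08 (SE 0.46, edgeR adjusted p = 0.321) and 0.93 (SE 0.37, edgeR adjusted p = 0.164). Hoxc13 had 0.731 and 0.458 CPM at day 7 in Kmt2d-/- clones, against 1.76 and 0.802 CPM at day 0, and 0.954, 1.28 and 0.900 CPM in Kmt2d+/+ clones at day 7, against 2.69, 1.46 and 2.19 CPM at day 0. It was lower at day 7 in all 5 clones, with log2 differences of -1.11 (SE 0.53, edgeR adjusted p = 0.386) and -1.01 (SE 0.43, edgeR adjusted p = 0.182).

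Hoxc8 had 0.231 and 3.28 CPM at day 7 in Kmt2d-/- clones, against 0.266 and 0.413 CPM at day 0. Kmt2d+/+ clones had 1.20, 0.649 and 0.573 CPM at day 7, against 0.115, 0.186 and 0.148 CPM at day 0. All 3 wild-type clones were above their day 0 libraries, whereas mutant clone 1 was not above its own. The Kmt2d+/+ log2 difference was 2.41 (SE 0.85, edgeR adjusted p = 0.126), from 4 to 8 counts per library at day 0. It passed when only the groups compared were fitted (edgeR adjusted p = 0.0433, 4.44% of all genes) or without Kmt2d-/- clone 1 (edgeR adjusted p = 0.0493, 3.41% of all genes), and adjusted p ranged from 0.0433 to 0.522 over 13 alternatives.

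Of the 24 genes, 10 differed in the same direction between days in all 5 clones, 41.7% beside 39.1% of all genes tested. Hoxa10, Hoxa13, Hoxb2 and Hoxb4 were higher at day 7 in every clone (4 genes, 16.7% beside 20.2% of all genes). Hoxb3, Hoxb6, Hoxb9, Hoxc5, Hoxc9 and Hoxc13 were lower (6 genes, 25.0% beside 18.8%). Median log2 difference of day 7 against day 0 was 0.18 for the 9 Hoxa, -0.82 for the 8 Hoxb and -0.03 for the 7 Hoxc genes in Kmt2d-/- clones. In Kmt2d+/+ clones it was 0.18, -0.17 and 0.31 in the same clusters. The median of all genes tested was -0.0030 in Kmt2d-/- and 0.03 in Kmt2d+/+ clones.

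Between genotypes, Hoxa2 was higher in Kmt2d-/- clones on both days, and Hoxa3 with it. Hoxa2, which patterns the skeleton of the second pharyngeal arch, had 2.37 and 2.44 CPM in Kmt2d-/- clones at day 7, against 0.773, 0.752 and 0.873 CPM in Kmt2d+/+ clones. At day 0 it had 2.03 and 2.64 CPM in Kmt2d-/- clones, against 0.945, 1.37 and 1.07 CPM in Kmt2d+/+ clones. The genotypes did not overlap on either day, at 33 to 133 counts per library. The log2 difference was 1.58 (3.00-fold, SE 0.34, edgeR adjusted p = 0.0521) at day 7 and 1.04 (SE 0.34, edgeR adjusted p = 0.131) at day 0. With clone as a random block in limma-voom, Hoxa2 was higher by 1.58 at day 7 (SE 0.33, adjusted p = 0.0420) and by 1.04 at day 0 (SE 0.35, adjusted p = 0.163). Its day 7 adjusted p ranged from 5.46e-04 to 0.251 over 13 alternatives and passed in 3, with log2 differences of 1.38 to 1.79. Hoxa2 shares 15.0% of its exon bases with Gm28308 on the same strand.

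Hoxa3, needed for thymus and parathyroid formation, had 21.2 and 24.0 CPM in Kmt2d-/- clones at day 7, against 14.6, 9.73 and 8.55 CPM in Kmt2d+/+ clones. At day 0 it had 14.6 and 22.8 CPM in Kmt2d-/- clones, against 6.04, 13.9 and 7.35 CPM in Kmt2d+/+ clones. The genotypes did not overlap, though at day 0 mutant clone 1 and wild-type clone 2 lay close together. The log2 difference was 1.04 at day 7 (SE 0.39, edgeR adjusted p = 0.182) and 1.04 at day 0 (SE 0.39, edgeR adjusted p = 0.179). Antisense genes overlap 25.4% of the exon bases of Hoxa3.

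**Figure D3:**
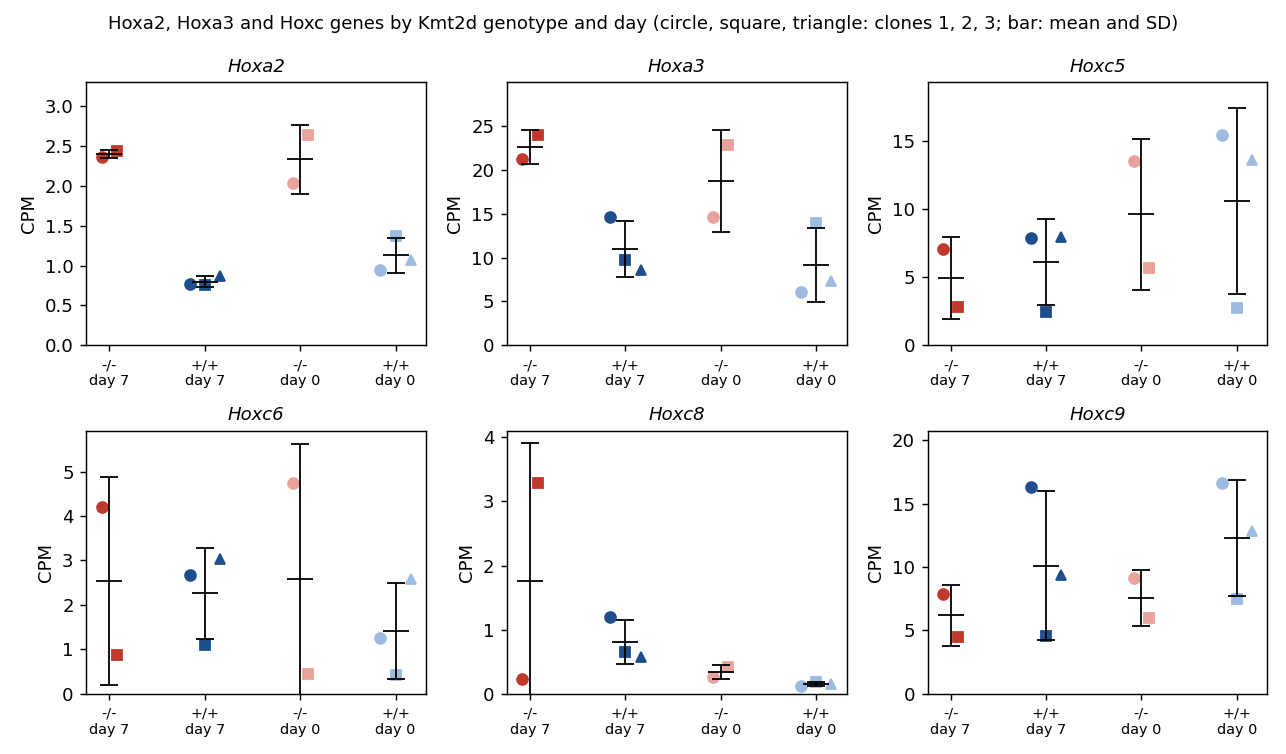
CPM of Hoxa2, Hoxa3, Hoxc5, Hoxc6, Hoxc8 and Hoxc9 in each library, with Kmt2d-/- left of Kmt2d+/+ at day 7 and then at day 0, and with group means and SD (n = 2 and 3 clones, SD bars clipped at 0). Hoxa2 averaged 2.40 CPM in Kmt2d-/- and 0.799 CPM in Kmt2d+/+ clones at day 7. Hoxc5 and Hoxc6 were low in clone 2 (squares) of both genotypes, which are different lines because clones are numbered within each genotype.

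The reverse order held for Hoxb4, which was lower in every Kmt2d-/- clone than in every Kmt2d+/+ clone on both days. The log2 difference of Hoxb4 was -0.69 at day 7 (SE 0.24, edgeR adjusted p = 0.158) and -0.31 at day 0 (SE 0.24, edgeR adjusted p = 0.502). Hoxb9 differed by -0.74 at day 7 (SE 0.30, edgeR adjusted p = 0.213), when the genotypes did not overlap, and by -0.47 at day 0 (SE 0.29, edgeR adjusted p = 0.417), when they did. Hoxa7, at 0.54 (SE 0.28, edgeR adjusted p = 0.331) at day 7 and 0.75 (SE 0.28, edgeR adjusted p = 0.181) at day 0, was higher in both mutant clones than in each wild-type clone at day 0 only. Leaving out Kmt2d-/- clone 1 took the day 7 difference of Hoxa7 to 0.0083, and leaving out clone 2 instead took it to 0.92.

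Among the other abundant genes, Hoxb6 differed by -0.65 (SE 0.40, edgeR adjusted p = 0.410) at day 7 and 0.14 (SE 0.39, edgeR adjusted p = 0.884) at day 0, and Hoxb7 by -0.14 (SE 0.30, edgeR adjusted p = 0.853) and -0.03 (SE 0.30, edgeR adjusted p = 0.970). Hoxb8 differed by -0.61 (SE 0.43, edgeR adjusted p = 0.486) at day 7 and -0.21 (SE 0.43, edgeR adjusted p = 0.830) at day 0. Hoxc4 differed by -0.60 (SE 0.39, edgeR adjusted p = 0.444) at day 7 and -0.35 (SE 0.39, edgeR adjusted p = 0.656) at day 0. The day 0 signs of Hoxb6, Hoxb7, Hoxb8 and Hoxc4 each turned when a particular clone was left out.

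Of the Hox genes, 0 of the 24 genes passed between genotypes at day 7, where 1.87% of all genes did, and 0 at day 0, where 2.15% did. Unadjusted p was under 0.05 in edgeR for 4 genes at day 7 (19.9% of all genes), Hoxa2 and Hoxa3 higher and Hoxb4 and Hoxb9 lower. At day 0 it was under 0.05 for Hoxa2, Hoxa3, Hoxa7 and Hoxb5, all higher in Kmt2d-/- clones (20.2% of all genes). DESeq2 and limma-voom each passed Hoxa2 at day 7, beside 10.6% and 3.45% of all genes, and neither passed a Hox gene at day 0, beside 11.0% and 1.72%. The random clone block passed 2.86% of all genes at day 7 and 1.25% at day 0.

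The share of genes whose genotypes did not overlap was near that of the whole table. At day 7, 10 of 24 genes did not overlap (41.7%, against 37.7% of all genes). Hoxa2, Hoxa3, Hoxa4 and Hoxa9 were higher in Kmt2d-/- clones (16.7%, against 17.9%), and Hoxa13, Hoxb2, Hoxb4, Hoxb6, Hoxb9 and Hoxc13 were lower (25.0%, against 19.8%). At day 0, 9 did not overlap (37.5%, against 36.9%). Of these Hoxb4 was lower (4.17%, against 18.3%), and Hoxa2, Hoxa3, Hoxa5, Hoxa6, Hoxa7, Hoxb3, Hoxc8 and Hoxc10 were higher (33.3%, against 18.6%). Hoxa2, Hoxa3 and Hoxb4 did not overlap in the same direction on both days, 12.5% against 19.6% of all genes. Hoxa2 and Hoxa3 were the higher ones (8.33%, against 9.53%) and Hoxb4 the lower one (4.17%, against 10.1%).

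The clusters leaned to different sides at day 7. Median log2 difference between genotypes was 0.51 for Hoxa, -0.50 for Hoxb and -0.30 for Hoxc genes, beside -0.02 for all genes tested, and 8 of 9 Hoxa genes were positive while 8 of 8 Hoxb genes were negative. At day 0 the medians were 0.48, -0.12 and -0.14, beside 0.01 for all genes. Summed Hoxa CPM was 95.4 to 122 in Kmt2d-/- and 75.5 to 80.5 in Kmt2d+/+ clones at day 7, and 89.1 to 97.9 against 55.1 to 73.0 at day 0, without overlap. Summed Hoxb CPM, to which Hoxb9 contributed most, was 147 to 199 in Kmt2d-/- and 211 to 292 in Kmt2d+/+ clones at day 7, and overlapped at day 0 at 275 to 390 against 292 to 505. Summed Hoxc CPM overlapped on both days. These sums were not tested, and neighbouring genes of a cluster are not independent of each other.

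**Figure D4:**
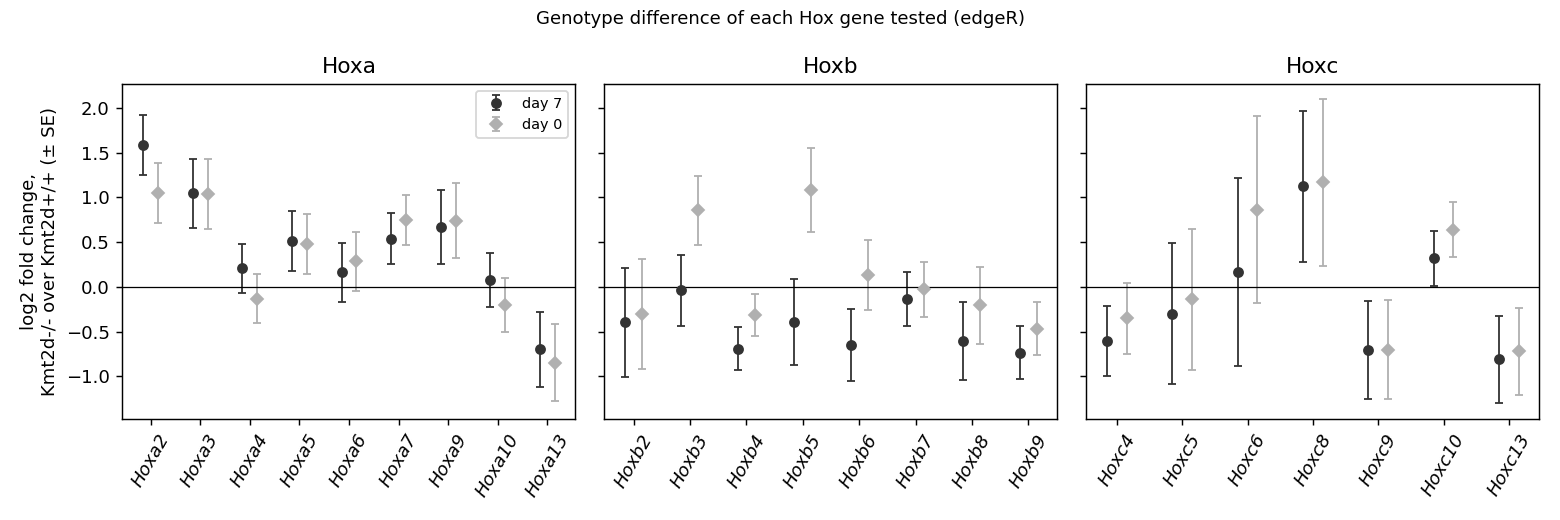
Log2 fold change of Kmt2d-/- over Kmt2d+/+ clones (edgeR, with SE) for the 24 Hox genes that passed the filter, at day 7 (circles) and day 0 (diamonds), by cluster. Hoxa2 lies highest at day 7 at 1.58, all 8 Hoxb genes lie under 0 at day 7, and 0 of the 24 pass at an adjusted p under 0.05.

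Whether the day effect differed between genotypes was tested as an interaction, with 0 of 24 genes passing, as for all 15467 genes (0%). Unadjusted p was under 0.05 for 0 Hox genes in edgeR without a clone term, and for 3.67% of all genes. DESeq2 (0.194% of all genes), limma-voom (0.00%) and edgeR with the clone term (0.00%) also passed 0 Hox genes. Without a clone term the smallest edgeR p belonged to Hoxb5, with a log2 difference of -1.47 (SE 0.68, edgeR adjusted p = 1.0). For the abundant genes the difference was -0.27 (SE 0.41) for Hoxb9, -0.21 (SE 0.40) for Hoxa7, -0.11 (SE 0.43) for Hoxb7, -0.40 (SE 0.60) for Hoxb8, -0.79 (SE 0.56) for Hoxb6 and -0.25 (SE 0.55) for Hoxc4, each with an edgeR adjusted p of 1.0. With the clone term, edgeR gave Hoxb3 -0.88 (SE 0.25, unadjusted p = 0.0119, adjusted p = 0.467). Hoxb5 had -1.435 there (SE 0.52, unadjusted p = 0.0313, adjusted p = 0.562), and its unadjusted p in DESeq2 was 0.0487. The share of all genes at such unadjusted p is not given for these fits. Both day effects share their libraries with the genotype comparisons.

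Several Hoxc genes differed between clones of 1 genotype more than between the groups. Hoxc6, a thoracic gene, had 4.19 and 0.880 CPM in Kmt2d-/- clones at day 7, against 2.66, 1.09 and 3.03 CPM in Kmt2d+/+ clones, and 4.73 and 0.436 against 1.26, 0.418 and 2.57 CPM at day 0. Hoxc5 had 7.06 and 2.84 CPM in Kmt2d-/- clones at day 7, against 7.88, 2.45 and 7.96 CPM in Kmt2d+/+ clones, and 13.6 and 5.71 against 15.5, 2.76 and 13.6 CPM at day 0. Hoxc9, which sets motor neuron identity at the thoracic level, had 7.89 and 4.47 against 16.3, 4.60 and 9.39 CPM at day 7, and 9.13 and 6.01 against 16.6, 7.47 and 12.8 CPM at day 0. In all of these, clone 2 was the lowest clone of its genotype on both days. Clones are numbered within each genotype, and clone 2 was labelled 96-9 in Kmt2d-/- and 10-7 in Kmt2d+/+, so these are different lines. Kmt2d-/- clone 1 also carried the label 10-7, and the labels do not say what this shared number means.

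The ratio of the highest to the lowest clone, after adding 0.1 CPM, reached 9.03 for Hoxc6 in Kmt2d-/- clones at day 0 and 5.44 for Hoxc5 in Kmt2d+/+ clones at day 0. For Hoxc8 it was 10.2 in Kmt2d-/- clones at day 7. Over the 24 genes the median ratio was 1.44 in Kmt2d-/- and 1.45 in Kmt2d+/+ clones at day 7, and 1.52 and 1.75 at day 0. Over all genes it was 1.24 and 1.47 at day 7, and 1.29 and 1.45 at day 0. At the other end, the ratio for Hoxa4 in Kmt2d-/- clones was 1.01 at day 7 and 1.02 at day 0. That for Hoxa6 was 1.30 at day 7, above the median of all genes, and 1.00 at day 0.

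The rest of the 24 genes passed in no fit named above. Hoxa4, which acts in neck vertebrae, ranged from 5.64 to 9.19 CPM over the 10 libraries, and Hoxa5, needed for lung and neck to thorax vertebrae, from 4.73 to 12.9 CPM. Hoxa6 ranged from 1.66 to 2.58 CPM, Hoxa9, a gene of blood progenitors, from 1.12 to 3.46 CPM, and Hoxa10, a gene of lumbar vertebrae and uterus, from 10.2 to 18.7 CPM. Hoxb2, a hindbrain gene, ranged from 0.642 to 4.28 CPM and Hoxc10, a gene of lumbar motor neurons, from 2.25 to 4.47 CPM. The lowest Hoxb2 library was Kmt2d-/- clone 2 at day 0, when the mutant clones differed by a ratio of 4.50, and antisense genes overlap 27.3% of the exon bases of Hoxb2.

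The chromosomal surroundings were measured in the same way. Of the genes within 500 kb outside the clusters, 4 were tested beside Hoxa, 17 beside Hoxb and 23 beside Hoxc. Between genotypes 0 of these 44 passed at day 7, while at day 0 Igf2bp1 beside Hoxb, an RNA-binding protein gene, was lower in Kmt2d-/- clones (log2 -1.53, SE 0.27, edgeR adjusted p = 0.0317). Igf2bp1 had 16.4 and 21.9 CPM in Kmt2d-/- clones at day 0, against 65.6, 41.0 and 59.2 CPM in Kmt2d+/+ clones. Between days, Phospho1 beside Hoxb, a phosphatase gene of mineralizing chondrocytes, rose in Kmt2d+/+ clones (log2 3.59, SE 0.63, edgeR adjusted p = 0.0240). The most abundant neighbours of Hoxa and Hoxc, Tax1bp1 and Pcbp2, differed between genotypes at day 7 by -0.38 (SE 0.15, edgeR adjusted p = 0.203) and -0.51 (SE 0.19, edgeR adjusted p = 0.194). Inside the clusters 2 other genes were tested, 5730596B20Rik in Hoxa and Gm11539 in Hoxb, and 0 passed in each comparison. The median log2 difference between genotypes at day 7 was -0.37 beside Hoxa, where the Hoxa genes had 0.51, 0.05 beside Hoxb and -0.30 beside Hoxc.

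Hox proteins bind DNA together with TALE homeodomain partners. Pbx2 had 39.7 and 40.4 CPM at day 7 in Kmt2d-/- clones, against 26.8 and 26.8 CPM at day 0, and 49.1, 39.6 and 45.7 CPM in Kmt2d+/+ clones at day 7, against 28.9, 31.4 and 28.9 CPM at day 0. The days did not overlap in either genotype, and Pbx2 rose in Kmt2d+/+ clones by 0.59 (SE 0.13, edgeR adjusted p = 0.0422). Pknox2, another partner, rose in Kmt2d+/+ clones by 2.13 (SE 0.39, edgeR adjusted p = 0.0260). In Kmt2d-/- clones Pbx2 (log2 0.58, SE 0.16, edgeR adjusted p = 0.133) and Pknox2 (log2 1.46, SE 0.47, edgeR adjusted p = 0.183) did not pass, and with the clone term Pknox2 rose by 1.48 (SE 0.15, edgeR adjusted p = 0.0110).

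Among 5 tested regulators of Hox transcription, Yy1, a zinc-finger factor, was higher in Kmt2d-/- clones on both days. It had 123 and 107 CPM in Kmt2d-/- clones at day 7, against 66.5, 76.3 and 69.7 CPM in Kmt2d+/+ clones, and 112 and 119 against 75.2, 72.9 and 69.4 CPM at day 0. The log2 differences were 0.69 (SE 0.14, edgeR adjusted p = 0.0453) and 0.67 (SE 0.14, edgeR adjusted p = 0.0445). Yy1 was the only 1 of the 5 to pass, beside 1.87% of all genes at day 7 and 2.15% at day 0. With clone as a random block 0.69 passed at day 7 (SE 0.15, limma-voom adjusted p = 0.0467), whereas Yy1 did not pass at day 0. The cause of these differences was not tested.

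The retinoic acid pathway, a known activator of anterior Hox genes, had 14 of 18 listed genes tested and 0 passing in each comparison without a clone term. Its most abundant gene, the receptor Rarg, had a mean of 174 CPM in Kmt2d-/- and 129 CPM in Kmt2d+/+ clones at day 7 (log2 0.43, SE 0.25, edgeR adjusted p = 0.379). With the clone term, Crabp2, Rarb and Rara rose and Rdh10 fell between days in Kmt2d+/+ clones, by 3.27 (SE 0.55, edgeR adjusted p = 0.0186) for Crabp2 and 1.19 (SE 0.16, edgeR adjusted p = 0.0129) for Rdh10. Of the 14 tested, 3 thus rose and 1 fell, beside 18.0% of all genes passing in that fit. In Kmt2d-/- clones Aldh1a3 rose by 2.38 (SE 0.48, edgeR adjusted p = 0.0464) and Rdh10 fell by 1.00 (SE 0.20, edgeR adjusted p = 0.0470). No other gene of the list passed there, beside 5.57% of all genes. Crabp2 codes for a retinoic acid carrier, and Aldh1a3 and Rdh10 for enzymes of its synthesis.

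Of 17 trithorax and lysine 4 methyltransferase genes and 16 Polycomb genes, 0 passed in each comparison without a clone term. Median log2 difference between genotypes at day 7 was 0.03 for the trithorax list and -0.04 for the Polycomb list, beside -0.02 for all genes. Ezh2, the Polycomb methyltransferase and most abundant of its list over the 10 libraries, averaged 99.6 CPM in Kmt2d-/- and 92.4 CPM in Kmt2d+/+ clones at day 7. With the clone term Ezh2 fell by 0.59 (SE 0.15, edgeR adjusted p = 0.0425) and Bmi1 by 0.49 (SE 0.11, edgeR adjusted p = 0.0338) between days in Kmt2d+/+ clones, as did Wdr5 and Ash1l of the trithorax list. These were 2 of 16 Polycomb and 2 of 17 trithorax genes, beside 18.0% of all genes in that fit. In Kmt2d-/- clones the lysine 27 demethylase gene Kdm6b rose by 0.73 (SE 0.13, edgeR adjusted p = 0.0342). Kdm6b was the only gene of either list to pass there, beside 5.57% of all genes.

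The fourth cluster, Hoxd, served as the closest comparison. Of its 8 genes in the count data, 4 were tested, and Hoxd13, a digit gene, was higher in Kmt2d-/- clones on both days (edgeR adjusted p = 0.0355 at day 7 and 0.0261 at day 0). Hoxd13 had 3.52 and 10.5 CPM in Kmt2d-/- clones at day 7, against 0.0165, 0.177 and 0.0136 CPM in Kmt2d+/+ clones. Hoxd3 was higher in Kmt2d-/- clones at day 0 (edgeR adjusted p = 0.0305), where it had 0.845 and 3.37 CPM against 0, 0.0232 and 0 CPM in Kmt2d+/+ clones. At day 7 in Kmt2d+/+ clones both were under 3 counts in at least 1 library, so no fold is given. Among the 24 tested genes of the other clusters 0 passed in these comparisons, and a difference between the clusters was not tested.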

How the data were processed

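Polyadenylated RNA of 10 libraries was analysed, each run on 2 flow cells. The deposited table holds gene-level estimated counts, not normalized, of which 0.351% (zeros left out) were whole to within 0.001. Salmon, edgeR, limma, DESeq2 and GRCm38 are named per the submitters' processing notes, with settings and use of strand not given in the sources used here. Runs were summed and rounded. Each library's total and 3-count floor limit precision, for counting error only. One edgeR 4.0.16 quasi-likelihood fit (R 4.3.3, filterByExpr, TMM, 4 group means, 6 residual degrees of freedom) covered 15467 genes, with Benjamini-Hochberg adjustment over all of them and calls under 0.05. It was tested on simulated counts with no shared clone effect and less spread between libraries than in these data. That test therefore does not show how the fit performs on these data. Values are CPM with SD over clones, and symbols and lengths came from GENCODE vM21 (481 identifiers had no symbol).

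Alternatives were DESeq2 1.42.0, limma-voom (limma 3.58.1), DESeq2 size factors, no filter, single runs, only the groups compared, each clone left out, and the clone as a replicate block. The same clonal line was sampled on both days, and deviations from group means correlated across genes within each clone at r = 0.363 to 0.571. The block was a term per clone for day effects (3 residual degrees of freedom) and a random effect in limma-voom for genotype (consensus correlation 0.4898).

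Fold changes are given for passing genes and the 6 most abundant Hox genes, and for listed partners those passing, else the most abundant. Other Hox genes given with fold changes were chosen after their values were seen. The genes and lists were chosen with earlier results of these data known. Some results on listed partner genes are not reported here.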

Additional observations from a re-analysis of the deposited data

How the results depend on the processing

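In the edgeR fit of all 4 groups without a clone term 0 Hox genes passed in each of the 5 comparisons. For genotype at day 7 the count was 1 (Hoxa2) with DESeq2, limma-voom and the clone as a random replicate block. For day 7 against day 0 it was 3 with DESeq2 and 2 with the clone as a replicate block in Kmt2d-/- clones, and 2 with DESeq2, 1 with only the groups compared, 2 with the clone block and 0 to 1 when leaving out 1 clone (1 without Kmt2d-/- clone 1) in Kmt2d+/+ clones. The replicate block changed no other Hox call. At day 0 and for the interaction the count stayed at 0 under each alternative run. Fitting only the groups compared gives no separate interaction fit. Single runs, DESeq2 size factors and no filter left every count at 0.

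Of 377 alternative values of 29 named log2 fold changes, 348 kept direction and side of the threshold, 14 passed newly and 15 turned sign, all between values that did not pass. The cause was not tested. For genotype at day 0, Hoxb6 turned to -0.0073 with limma-voom and -0.0056 with the random block, and Hoxb7 to 0.0404 with run 1 alone. Leaving out 1 clone gave -0.76 to 0.68 for Hoxb6 (Kmt2d-/- against Kmt2d+/+ at day 0), -0.44 to 0.29 for Hoxb7 (Kmt2d-/- against Kmt2d+/+ at day 0), -0.54 to 0.14 for Hoxb8 (Kmt2d-/- against Kmt2d+/+ at day 0), -0.89 to 0.0426 for Hoxc4 (Kmt2d-/- against Kmt2d+/+ at day 0), -0.44 to 0.51 for Hoxa7 (day 7 against day 0 in Kmt2d-/-), -0.57 to 0.24 for Hoxb7 (day 7 against day 0 in Kmt2d-/-), -0.0979 to 0.31 for Hoxc4 (day 7 against day 0 in Kmt2d-/-) and -0.23 to 0.0187 for Hoxb7 (day 7 against day 0 in Kmt2d+/+). The sign held but the size varied for Hoxa7 between genotypes at day 7 (0.0083 to 0.92) and for Hoxb6 between days in Kmt2d-/- clones (-1.69 to -0.74). Depth limits Hoxc8 and the 5 genes under the filter.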
